A study of Mus musculus with 14 samples.

Results

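The genes described here were 10 genes of prostaglandin synthesis, breakdown and reception, 10 of 21853 protein-coding genes whose expression was measured in the ovary and the uterus of aged mice. They were taken by name as members of the pathway and not by a cutoff on their values, but with earlier results of these data known. Each was found in the deposited table through its Ensembl identifier. Synthesis was represented by Ptgs1, Ptges, Ptges2, Ptges3, Ptgis and Ptgds, breakdown by Hpgd, and reception of prostaglandin E2 by Ptger2, Ptger3 and Ptger4.

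Bulk RNA-seq libraries were available from 3 mice of the OC group and 4 mice of the OT group, each with an ovary and a uterus library, which gave 14 libraries in 4 groups. All were female C57BL/6J mice of 28 weeks. The OT group had received conditioned medium of mesenchymal stem cells from human amniotic membrane (AMSC-CM), 1 µL per g body weight into the tail vein, in 6 injections 4 days apart, and the OC group had received saline intravenously. Mice of both groups had been injected beforehand with pregnant mare serum gonadotropin and, 48 h later, human chorionic gonadotropin, 10 IU each, so the controls were gonadotropin-primed as well and no unprimed or young mouse was analysed here. The labels carry the same mouse names (OC1 to OC3, OT1 to OT4) in both tissues, and libraries of the same name were taken as the same mouse. Values are FPKM (fragment counts divided by transcript length and by sequencing depth), so levels of different genes can be set side by side.

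Prostaglandins are lipid signals made from arachidonic acid, which phospholipases release from membranes. The cyclooxygenases Ptgs1 and Ptgs2 turn arachidonic acid into prostaglandin H2, from which terminal synthases make prostaglandin E2, prostaglandin D2, prostaglandin F2α, prostacyclin or thromboxane, and Hpgd starts their inactivation. In the ovary prostaglandin E2 takes part in cumulus expansion and ovulation and prostaglandin F2α in regression of the corpus luteum, while in the uterus prostaglandins act in implantation, decidualization and contraction of the myometrium.

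In mm10, 5 of the 10 genes lie on chromosome 2: Ptgds from 25466709 to 25470046, Ptges from 30889471 to 30929863 and Ptgis from 167191805 to 167240604, each on the minus strand, and Ptges2 from 32395896 to 32405772 and Ptgs1 from 36230426 to 36252272 on the plus strand. Ptges3 lies on chromosome 10 from 128058954 to 128077272, Hpgd on chromosome 8 from 56294585 to 56321043, Ptger2 on chromosome 14 from 44988195 to 45003820 and Ptger3 on chromosome 3 from 157566892 to 157645888, all on the plus strand. Ptger4 lies on the minus strand of chromosome 15 from 5206661 to 5244187. Ptges overlaps the pseudogene Gm13400 and Hpgd the unclassified transcript Gm45540 on the same strand, so the reads of each pair may not have been fully separated.

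Marker genes matched the labelled tissues. The summed level of 8 ovary markers was 3462 to 4487 FPKM in the ovaries and 7.85 to 23.2 FPKM in the uteruses, where Zp3 and Fshr were listed at 0 in every library, and 6 uterus markers summed to 345 to 578 FPKM in the uteruses and 55.3 to 160 FPKM in the ovaries. Oviduct and ciliated cell markers (4 genes) were also found in the ovary libraries, at 462 to 982 FPKM, against 6.76 to 186 FPKM in the uteruses. The OT1 uterus stood apart, with a total of 577494 FPKM against 425875 to 471907 FPKM in the other 6 uteruses, and with 11897 FPKM summed over 10 adipocyte markers. FPKM is already scaled to the mapped fragments, so the depth behind each value is unknown. Values of a bulk tissue cannot separate fewer cells of a type from less RNA per cell.

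In both tissues Ptges3 had the highest mean level among the 10 genes and either Ptges2 or Ptgds the lowest. In the OT2 uterus Ptges3, at 83.0 FPKM, was below Hpgd, Ptger3 and Ptgis. Ptges3 encodes the cytosolic prostaglandin E synthase, also known as the Hsp90 cochaperone p23. It reached 89.9 ± 6.06 FPKM (SD, n = 7) in the ovary and 103 ± 26.2 FPKM (SD, n = 7) in the uterus, above 97.3% of all genes in each tissue. A processed pseudogene, Ptges3-ps, resembles it in sequence, so reads could have been split between them and the level of Ptges3 is uncertain. In the ovary the next genes were Ptgis at 26.6 ± 5.16 FPKM, Hpgd at 17.0 ± 2.88 FPKM and Ptges at 14.5 ± 3.40 FPKM (SD, n = 7 each). Ptgis lay above Hpgd in 7 of 7 ovaries. Ptgs1, Ptger4 and Ptger3 followed at means of 10.3, 9.75 and 9.32 FPKM, an order that held for each neighbouring pair in only 4 of 7 ovaries. Ptger2, Ptgds and Ptges2 came last, and Ptges2 was the most even of the 10 genes in the ovary, with a coefficient of variation of 5.43% over 7 libraries. In the uterus Ptger3 was second at 64.6 ± 14.1 FPKM, followed by Ptgis at 59.8 ± 17.1 FPKM, Hpgd at 54.4 ± 23.7 FPKM and Ptger4 at 35.01 ± 12.3 FPKM (SD, n = 7 each). The ranges of these neighbours overlapped, and Ptger3 was above Ptgis in 4 of 7 uteruses. Ptgs1 was below Ptger4 and above Ptger2 in 7 of 7 uteruses, and Ptges2 was above Ptgds in all 7, with ranges that did not overlap.

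**Figure D1:**
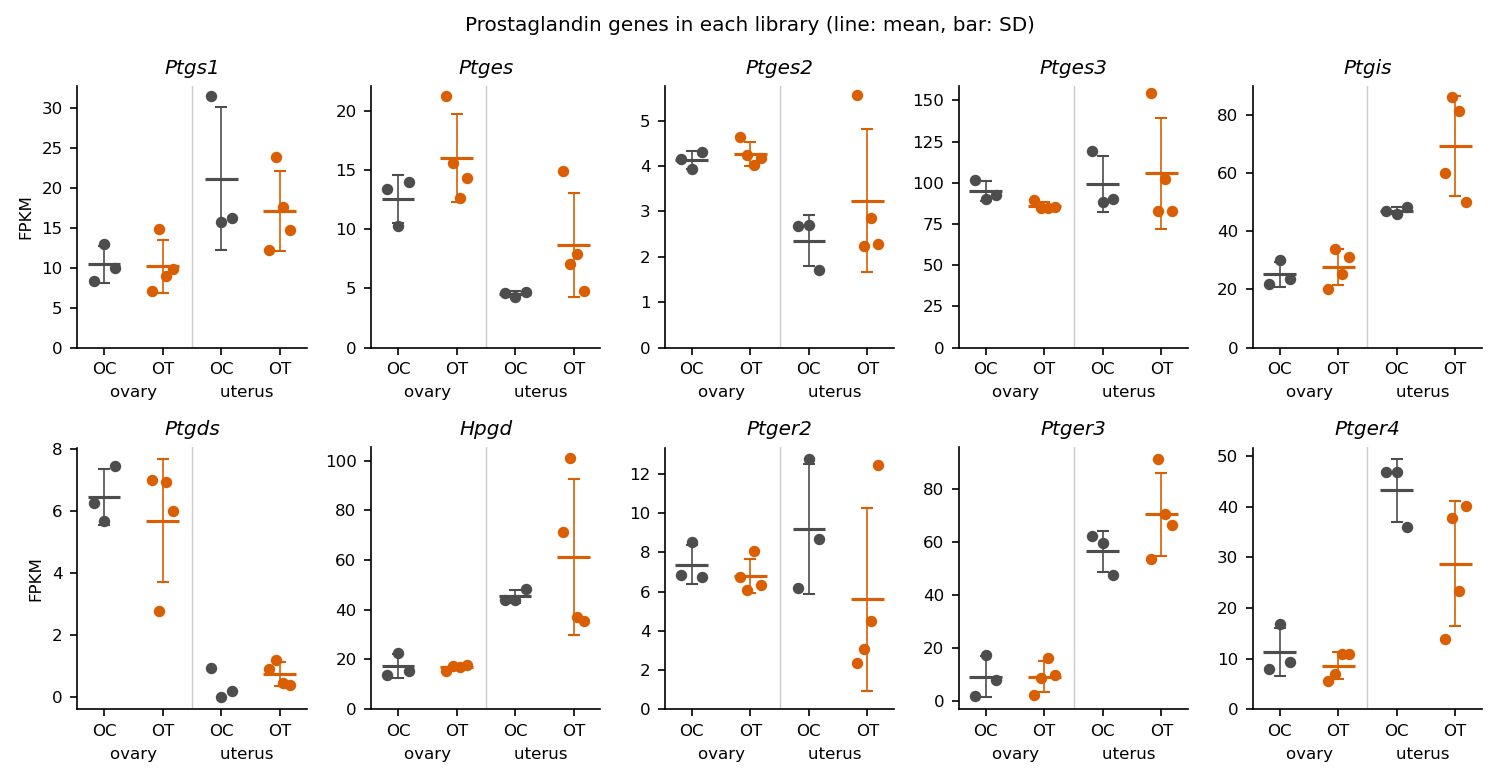
Level of each of the 10 genes in FPKM (vertical axis, linear, a scale of its own for each gene) in OC libraries (grey, 3 per tissue) and OT libraries (orange, 4 per tissue) of the ovary and the uterus. Points are libraries, horizontal lines group means and bars the SD, and no mean or SD is drawn for Ptgds in the OC uteruses, where OC2 is listed at 0. Ptgis, Hpgd and Ptger3 are higher in every uterus than in every ovary, and Ptgds lower.

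The ovary and the uterus were compared first, over 14 libraries, since the same mice gave both tissues. By limma on log2(FPKM + 0.1), 4 of the 10 genes were at least 2-fold higher in the uterus at an adjusted p under 0.05 and 2 were at least 2-fold lower. These were Ptgis, Hpgd, Ptger3 and Ptger4 on the higher side and Ptges and Ptgds on the lower. Together they made 6 of 10, where 19.6% of the 14557 genes tested passed the same call (10% higher and 9.59% lower in the uterus). At an adjusted p under 0.05 without the fold change, 8 of 10 genes differed, against 52.9% of all genes. Ranges that did not overlap between the tissues were found for 4 of 10 (Ptgis, Ptgds, Hpgd and Ptger3), against 25% of all genes. The median over the 10 genes was a log2 fold change of 0.50, and -0.0043 over all genes. This limma fit took the ovary and uterus libraries of a mouse as independent. With the mouse as a block the same 6 genes were called, at adjusted p of 4.74e-05 to 0.000219 (limma with Benjamini-Hochberg adjustment).

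Among the synthases, Ptgis and Ptges differed in opposite directions. Ptgis, the prostacyclin synthase, ranged from 20.2 to 34.0 FPKM in the ovaries (median 25.3) and from 45.8 to 86.2 FPKM in the uteruses (median 49.9). Every uterus lay above every ovary, and the level was 2.16-fold higher in the uterus (95% confidence interval 1.74 to 2.68; limma with Benjamini-Hochberg adjustment, adjusted p = 2.65e-05). Ptges, the inducible microsomal prostaglandin E synthase, ranged from 10.3 to 21.3 FPKM in the ovaries (median 14.02) and from 4.24 to 14.9 FPKM in the uteruses (median 4.78). It was higher in the ovary of all 7 mice, although the OT1 uterus at 14.9 FPKM lay within the range of the ovaries. Its log2 fold change from ovary to uterus was -1.21 (standard error 0.21; limma with Benjamini-Hochberg adjustment, adjusted p = 0.000282). The level of Ptgis per level of Ptges was 0.950 to 2.92 in the ovaries and 4.01 to 12.2 in the uteruses, and the OT1 libraries had the lowest ratio in each tissue.

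Ptgds, the lipocalin-type prostaglandin D synthase, had the largest difference of the synthases. The ovaries held 2.79 to 7.45 FPKM (median 6.27). The uteruses of OC1, OC2 and OC3 held 0.939, 0 and 0.212 FPKM and those of OT1 to OT4 0.918, 1.20, 0.460 and 0.380 FPKM. It was lower in every uterus than in every ovary. The log2 fold change of -3.59 (limma with Benjamini-Hochberg adjustment, adjusted p = 1.63e-05) depended on the constant of 0.1 added before the log, since these uterus values were low, and was -2.19 with a constant of 1.

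Ptgs1, the constitutive cyclooxygenase, was higher in the uterus of all 7 mice, at 18.8 ± 6.64 FPKM against 10.3 ± 2.70 FPKM in the ovary (SD, n = 7 each), and its ranges overlapped. The difference of 1.81-fold (95% confidence interval 1.32 to 2.48; limma with Benjamini-Hochberg adjustment, adjusted p = 0.00417) passed the test without reaching 2-fold. Ptges2, a membrane-associated prostaglandin E synthase, was lower in 6 of 7 uteruses than in the ovary of the same mouse, with the exception of OT1 (5.57 FPKM in the uterus, 4.64 FPKM in the ovary). Its log2 fold change was -0.65 (limma with Benjamini-Hochberg adjustment, adjusted p = 0.0116), and without OC3 it was -0.53 and did not pass. For Ptges3 the difference was 1.11-fold with a 95% confidence interval of 0.914 to 1.35 and an adjusted p of 0.353 by limma.

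Hpgd, the dehydrogenase of the first step of prostaglandin inactivation, was higher in every uterus than in every ovary. It ranged from 13.6 to 22.7 FPKM in the ovaries (median 16.8) and from 35.4 to 101 FPKM in the uteruses (median 43.9). The fold change was 2.97 (95% confidence interval 2.16 to 4.08; limma with Benjamini-Hochberg adjustment, adjusted p = 3.85e-05). Set against Ptges in the same library, Hpgd was 0.721 to 2.21 times its level in the ovaries and 4.69 to 14.3 times its level in the uteruses.

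Of the receptors of prostaglandin E2, the EP3 and EP4 receptor genes were higher in the uterus and the EP2 receptor gene had no difference that passed the test. EP2 (Ptger2) and EP4 (Ptger4) raise cyclic AMP, whereas EP3 (Ptger3) mainly lowers it and is known for contraction of smooth muscle. Among the genes higher in the uterus Ptger3 had the largest fold change, from 2.21 to 17.5 FPKM in the ovaries (median 8.75) to 47.8 to 91.3 FPKM in the uteruses (median 62.3), without overlap. It was 8.53-fold higher in the uterus (95% confidence interval 4.38 to 16.6; limma with Benjamini-Hochberg adjustment, adjusted p = 6.41e-05). Within a mouse the ratio of uterus to ovary ran from 3.40 to 27.1, with the widest spread on the ovary side, where OC1 and OT1 held 2.21 and 2.35 FPKM and OC2 and OT3 17.5 and 16.3 FPKM. The uterus markers summed to 68.3 and 55.3 FPKM in the OC1 and OT1 ovaries, and to 160 and 140 FPKM in those of OC2 and OT3. In the other ovaries their sum was 69.8 to 110 FPKM. The relation of these sums to the spread of Ptger3 was not tested. Ptger4 ranged from 5.55 to 16.8 FPKM in the ovaries (median 9.27) and from 13.9 to 47.0 FPKM in the uteruses (median 37.7), and the OT1 uterus was the only uterus within the ovary range. The fold change of Ptger4 was 3.56 (95% confidence interval 2.42 to 5.24; limma with Benjamini-Hochberg adjustment, adjusted p = 5.34e-05). Ptger2 stood at 7.05 ± 0.900 FPKM in the ovary and 7.14 ± 4.28 FPKM in the uterus (SD, n = 7 each). Its uterus to ovary ratio was 0.896, with a 95% confidence interval of 0.571 to 1.41 and an adjusted p of 0.684 by limma.

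Ptgs1, Ptges, Ptgis, Ptgds, Hpgd, Ptger3 and Ptger4 moved the same way in all 7 mice. The exact two-sided sign-flip permutation test over mice gave p = 0.0156 for each, the smallest p that 128 sign flips allow. A shared direction in all 7 mice fixes this p, so the test adds nothing to that direction. By the same test p was 0.03125 for Ptges2, 0.25 for Ptges3 and 0.516 for Ptger2. The share of all genes that moved the same way in all 7 mice was not counted. The oviduct and ciliated cell markers given above were higher in the ovary libraries, and smooth muscle markers (5 genes) summed to 614 to 1846 FPKM in the ovaries and 5146 to 9979 FPKM in the uteruses. Which cells of either tissue the differences came from was not tested.

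**Figure D2:**
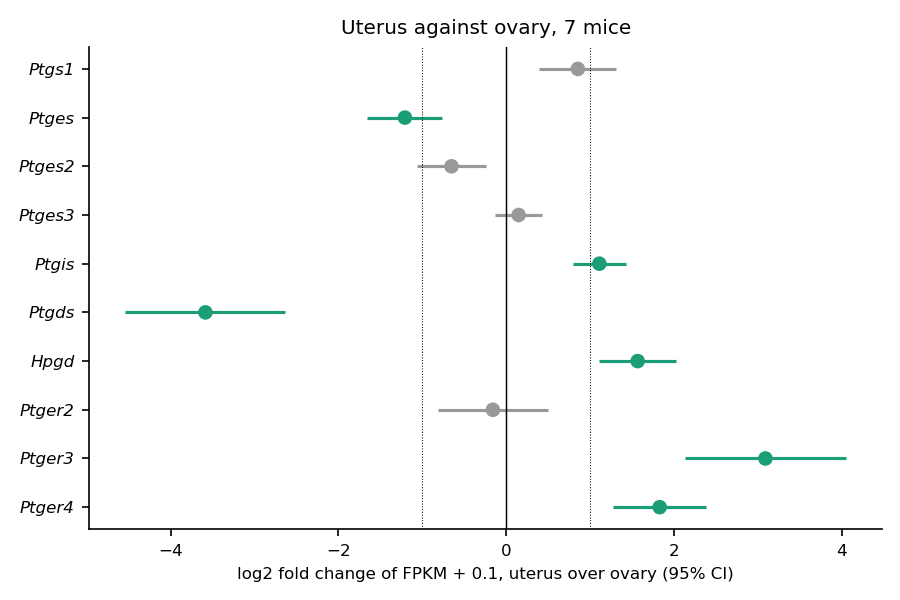
Log2 fold change of FPKM + 0.1 from ovary to uterus (horizontal axis) for the 10 genes, with 95% confidence intervals from limma over 14 libraries of 7 mice. Green marks genes with a change of at least 2-fold (dotted lines) and an adjusted p under 0.05, grey the others. Ptger3 at 3.09 lies farthest to the right and Ptgds at -3.59 farthest to the left.

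The upstream windows of the EP receptor genes are shown because Ptger3 and Ptger4 differed between the tissues while Ptger2 did not pass the test. Each window holds the 250 bases before the start of the gene in the RefSeq table for GRCm38.p6, on the strand of the gene: chr14:44987861-44988110 on the plus strand for Ptger2, chr3:157566626-157566875 on the plus strand for Ptger3 and chr15:5244188-5244437 on the minus strand for Ptger4. The RefSeq start lies 84 bases upstream of the GENCODE gene start for Ptger2, 16 bases upstream for Ptger3 and at the same base for Ptger4. Capitals mark matches, on either strand, of the TATA box TATAAA, the CCAAT box CCAAT, the GC box GGGCGG or the cAMP response element TGACGTCA.
Ptger2: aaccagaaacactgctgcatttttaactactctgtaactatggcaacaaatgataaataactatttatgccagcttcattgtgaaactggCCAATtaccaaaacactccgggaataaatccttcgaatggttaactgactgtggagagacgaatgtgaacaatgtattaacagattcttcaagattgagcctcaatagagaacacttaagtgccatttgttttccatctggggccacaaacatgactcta
Ptger3: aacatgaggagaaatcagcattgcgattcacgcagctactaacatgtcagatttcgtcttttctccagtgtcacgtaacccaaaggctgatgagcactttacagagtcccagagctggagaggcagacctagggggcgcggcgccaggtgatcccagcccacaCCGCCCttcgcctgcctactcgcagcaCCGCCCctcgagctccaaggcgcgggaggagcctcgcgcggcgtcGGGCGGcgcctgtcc
Ptger4: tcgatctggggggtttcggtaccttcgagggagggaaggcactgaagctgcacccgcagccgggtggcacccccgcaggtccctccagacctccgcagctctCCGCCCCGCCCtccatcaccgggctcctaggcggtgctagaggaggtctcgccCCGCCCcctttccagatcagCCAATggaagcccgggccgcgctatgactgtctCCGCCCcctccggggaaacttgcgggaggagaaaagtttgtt

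The Ptger3 window held 3 GC boxes, whose first bases lie 87, 60 and 15 bases before the start. The Ptger4 window held 4, at 148, 143, 95 and 42 bases, the first pair of which overlap by a base, and a CCAAT box at 75 bases. The Ptger2 window held a CCAAT box at 160 bases and no GC box. The windows also differed in CpG dinucleotides, with 21 in Ptger3, 19 in Ptger4 and 3 in Ptger2, against a median of 6 over the 32851 promoters of the table. The TATA box and the cAMP response element had no match in these windows. Of all promoters of the same length, 32.7% held a GC box, 33.85% a CCAAT box, 12.4% a TATA box and 1.55% a cAMP response element. Among the 9 of 10 listed genes matched in the table (all but Ptgis), 5 held a GC box and 2 a CCAAT box. Of those with a GC box, Hpgd, Ptger3 and Ptger4 were called higher in the uterus, Ptges was called lower and Ptges3 was not called. These matches describe the letters of the windows and were not tested against the expression values. The window of Ptger2 lies within introns of the noncoding genes Gm49364 and Gm17173 on the opposite strand in GENCODE, and Ptger4 overlaps Ttc33 on the opposite strand. The counting used strand, so reads of Ttc33 were not counted for Ptger4.

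The treatment comparison asked whether these genes differed between mice given AMSC-CM and mice given saline. In the ovary, 0 of the 10 genes were called at the cutoffs, a log2 fold change of 1 or more in either direction with an unadjusted p of 0.05 or less by limma, against 0.451% of 14415 genes tested. At the p alone the count was also 0, against 4.51% of all genes, and the adjusted p of the 10 genes lay between 0.997 and 1.00 (limma with Benjamini-Hochberg adjustment). The log2 fold changes ran from -0.39 for Ptger4 to 0.33 for Ptges, with 5 above 0 and 5 below. Their median was -0.03 and that of all tested genes -0.01.

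Of the synthases in the ovary, Ptges3 had groups that did not overlap. It was at 102, 90.1 and 92.7 FPKM in OC1 to OC3 and at 89.5, 85.0, 84.8 and 85.4 FPKM in OT1 to OT4. All OT ovaries were below all OC ovaries, a separation seen in 5.91% of the tested genes (3.13% with OT lower). The difference was small, a log2 fold change of -0.14 (standard error 0.06; unadjusted p = 0.0573 by limma, exact two-sided permutation test over 35 splits p = 0.0571, the smallest they allow). Without the OC1 ovary it was -0.09, and without OC2 or OT1 the unadjusted p of limma fell to 0.0416 and 0.0483. Ptges was at 13.4, 10.3 and 14.02 FPKM in OC1 to OC3 and at 21.3, 15.6, 12.7 and 14.4 FPKM in OT1 to OT4. The OT1 and OT2 ovaries were above all OC ovaries and the other OT ovaries lay among them. Its log2 fold change was 0.33 (95% confidence interval -0.08 to 0.74; unadjusted p = 0.103 by limma), and 0.43 without OT3 (unadjusted p = 0.0414 by limma).

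The ovary intervals were narrowest for Ptges3, Ptges2 and Ptger2 and widest for Ptger3. For Ptges2 the OT level was 0.857 to 1.24 times and for Ptger2 0.745 to 1.15 times the OC level (95% confidence intervals). For Hpgd the ratio of OT to OC was 1.00, with an interval from 0.777 to 1.29. Ptger3 was at 2.21, 17.5 and 8.13 FPKM in OC1 to OC3 and at 2.35, 8.75, 16.3 and 9.99 FPKM in OT1 to OT4. Its interval ran from 0.332 to 3.76 times the OC level, so that a 2-fold change in either direction could not be detected at this spread. Ptger4 was at 8.03, 16.8 and 9.27 FPKM in OC1 to OC3 and at 5.55, 6.999, 10.8 and 10.8 FPKM in OT1 to OT4, with overlap of the groups. Adipocyte markers summed to 222 to 334 FPKM in the OC ovaries and 268 to 1865 FPKM in the OT ovaries, with a higher OT mean for 10 of 10 genes and no overlap for 2. Immune markers (6 genes) summed to 25.8 to 35.1 FPKM in the OC ovaries and 36.3 to 61.1 FPKM in the OT ovaries, without overlap of the sums, with a higher OT mean for 6 of 6 genes and no overlap for 1. Of all genes tested in the ovary, 5.91% had groups without overlap. The part of either list in the values of the 10 genes was not tested.

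In the uterus, 0 of the 10 genes passed both cutoffs, against 2.9% of 14151 genes tested. At the unadjusted p alone, limma passed 2 of 10, Ptges and Ptgis, both higher in the OT group, against 8.2% of all genes (5.15% higher). The same genes were those whose groups did not overlap, against 11.9% of all genes (6.46% with OT higher). The adjusted p of the 10 genes ranged from 0.570 to 0.941 (limma with Benjamini-Hochberg adjustment). With 7 genes above 0 and 3 below, the median log2 fold change was 0.30, where that of all tested genes was 0.01.

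Ptges was at 4.60, 4.24 and 4.73 FPKM in the uteruses of OC1 to OC3 and at 14.9, 7.04, 7.90 and 4.78 FPKM in those of OT1 to OT4. The OC uteruses were close together, OT1 was the highest, and OT4 was just above the highest OC uterus. The OT level was 1.74-fold the OC level (log2 fold change 0.80, standard error 0.34; unadjusted p = 0.0468, adjusted p = 0.599 by limma after Benjamini-Hochberg adjustment). An exact permutation test, two-sided, gave p = 0.0571, the smallest that 35 splits allow. Without the OT1 uterus the log2 fold change was 0.50, and without OT4 it was 1.04 and passed both cutoffs (unadjusted p = 0.00924 by limma). Leaving out OC1, OC2, OC3, OT2 or OT3 took the unadjusted p of limma above the cutoff, to between 0.0631 and 0.111.

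Ptgis was at 46.9, 45.8 and 48.4 FPKM in the uteruses of OC1 to OC3 and at 59.8, 86.2, 81.3 and 49.9 FPKM in those of OT1 to OT4. Again the OC uteruses were close together and OT4 was nearest to them, but the highest was OT2 and not OT1. The OT level was 1.44-fold the OC level (log2 fold change 0.52, standard error 0.20; unadjusted p = 0.0309, adjusted p = 0.570 by limma after Benjamini-Hochberg adjustment), with an exact two-sided permutation p of 0.0571. Without OC1, OC2, OC3, OT2 or OT3 the unadjusted p of limma was 0.0644 to 0.0813, and without OT1 or OT4 it was 0.0233 and 0.00499.

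The other synthases of the list did not separate the groups in the uterus. Ptgs1 was at 21.1 ± 8.97 FPKM (SD, n = 3) in the OC group, where OC1 held 31.5 FPKM, and at 17.1 ± 5.04 FPKM (SD, n = 4) in the OT group. Ptges2 and Ptges3 were both highest in the OT1 uterus, at 5.57 and 155 FPKM, while the other OT uteruses held 2.23 to 2.85 and 82.8 to 102 FPKM. The log2 fold change of Ptges3 was 0.05, and -0.14 without OT1. For Ptgds, whose uterus values are given above, the log2 fold change was 1.28 (95% confidence interval -0.65 to 3.20; unadjusted p = 0.165 by limma). That value moved from 0.36 to 2.39 with the constant added before the log, was 0.44 without OC2, listed at 0, and without OC1 was 2.13 and passed both cutoffs (unadjusted p = 0.0258 by limma).

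Hpgd in the uterus differed among the OT mice more than between the groups. It was at 43.9, 43.9 and 48.3 FPKM in OC1 to OC3 and at 71.4, 101, 37.0 and 35.4 FPKM in OT1 to OT4. OT1 and OT2 were above all OC uteruses, and OT3 and OT4 were below all of them. The ratio of OT to OC was 1.22, with a 95% confidence interval of 0.690 to 2.17 (unadjusted p = 0.441 by limma).

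Among the receptors in the uterus, Ptger2 and Ptger4 had lower and Ptger3 a higher OT mean, and each pair of groups overlapped. Ptger2 was at 6.17, 12.8 and 8.68 FPKM in OC1 to OC3 and at 2.33, 3.07, 4.51 and 12.5 FPKM in OT1 to OT4. The uteruses of OT1, OT2 and OT3 were below all OC uteruses, whereas OT4 was close to the highest of them. The OT level was 0.516 times the OC level (95% confidence interval 0.218 to 1.22; unadjusted p = 0.114 by limma). Ptger2 was not called, and this depended on OT4. Without OT4 the log2 fold change was -1.44 and passed both cutoffs (unadjusted p = 0.00382, limma). With it, no alternative that left out another library did so. Ptger4 was at 47.0, 46.8 and 36.0 FPKM in OC1 to OC3 and at 13.9, 37.7, 23.4 and 40.2 FPKM in OT1 to OT4. OT1 and OT3 were below all OC uteruses, and OT2 and OT4 lay between OC3 and OC2. The log2 fold change was -0.70 (unadjusted p = 0.0865 by limma), -0.39 without OT1 and -0.90 without OT4 (unadjusted p = 0.0356 by limma). Ptger3 was at 62.3, 59.6 and 47.8 FPKM in OC1 to OC3 and at 53.6, 91.3, 70.7 and 66.7 FPKM in OT1 to OT4. OT2, OT3 and OT4 exceeded all OC uteruses and OT1 did not, and the log2 fold change was 0.30 (unadjusted p = 0.157 by limma) and 0.43 without OT1 (unadjusted p = 0.0296 by limma).

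**Figure D3:**
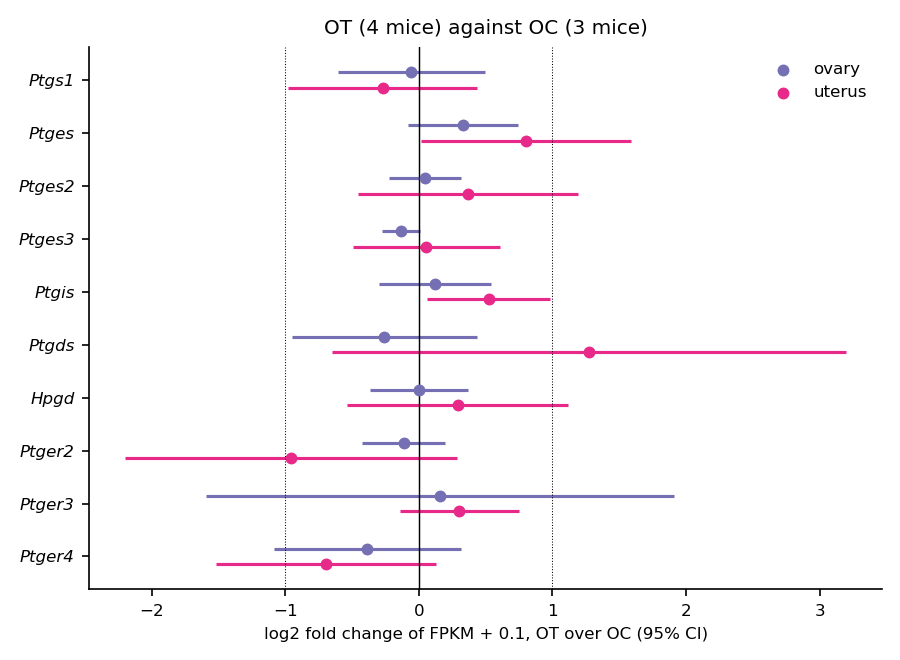
Log2 fold change of FPKM + 0.1 from OC to OT (horizontal axis) for the 10 genes in the ovary (purple) and the uterus (pink), with 95% confidence intervals from limma on 3 OC and 4 OT libraries per tissue, and dotted lines at 2-fold. Except for the uterus values of Ptges and Ptgis, the intervals include 0.

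Of the markers of other cells, some sums separated the uterus groups and others overlapped. The 10 adipocyte markers summed to 83.9 to 276 FPKM in the OC uteruses and 1277 to 11897 FPKM in the OT uteruses, with a higher OT mean for 10 of 10 genes and no overlap for 9. The 8 markers of stratified epithelium summed to 2.89 to 13.8 FPKM in the OC uteruses and 47.97 to 915 FPKM in the OT uteruses, with a higher OT mean for 8 of 8 and no overlap for 7. Of all genes tested in the uterus, 11.9% had groups without overlap. The 5 smooth muscle markers summed to 5146 to 6095 FPKM in the OC and 6422 to 9979 FPKM in the OT uteruses, and the 6 uterus markers to 520 to 578 FPKM in the OC and 345 to 479 FPKM in the OT uteruses, each without overlap. The 4 urothelium markers summed to 5.10 to 8.29 FPKM in the OC and 4.43 to 157 FPKM in the OT uteruses. For the 4 mast cell markers the sums were 54.4 to 86.0 and 44.3 to 125 FPKM, and for the 6 immune markers 46.3 to 68.1 and 59.0 to 126 FPKM. Each of these sums overlapped between the groups. The OT mean was higher for 4 of 4, 4 of 4 and 4 of 6 genes of these lists, with no overlap for 0, 0 and 1. The OT1 uterus had both the highest adipocyte sum and the highest Ptges, Ptges2 and Ptges3 and the lowest Ptger2 and Ptger4, while Ptgis, Hpgd and Ptger3 were highest in OT2, whose adipocyte sum was 1286 FPKM. The part of these cells in the differences between the groups was not tested.

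The levels of the 4 EP receptors were also taken as shares of their sum, including Ptger1, the gene of the EP1 receptor, which was the least expressed at 0.604 to 2.14 FPKM over 14 libraries. Ptger3 made up 53.5%, 49.1% and 50.9% of the sum in the uteruses of OC1 to OC3 and 75.8%, 68.4%, 70.7% and 55.3% in those of OT1 to OT4. All OT uteruses had a larger share than all OC uteruses. The sum itself was 93.9 to 121 FPKM in the OC and 70.7 to 133 FPKM in the OT uteruses, while Ptger4 held 38.4% to 40.3% of it in the OC and 19.6% to 33.4% in the OT uteruses. These shares were chosen after the values had been seen and are a description with no test. Leaving out a library at a time moved the difference in the mean share of Ptger3 between 13.6 and 20.5 percentage points. In the ovary the share of Ptger3 overlapped, at 12.5%, 39.7% and 32.4% in OC1 to OC3 and at 15.3%, 38.8%, 44.6% and 34.96% in OT1 to OT4, and Ptger2 held 19.3% to 43.6% of the sum in the ovaries against 2.30% to 10.5% in the uteruses.

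**Figure D4:**
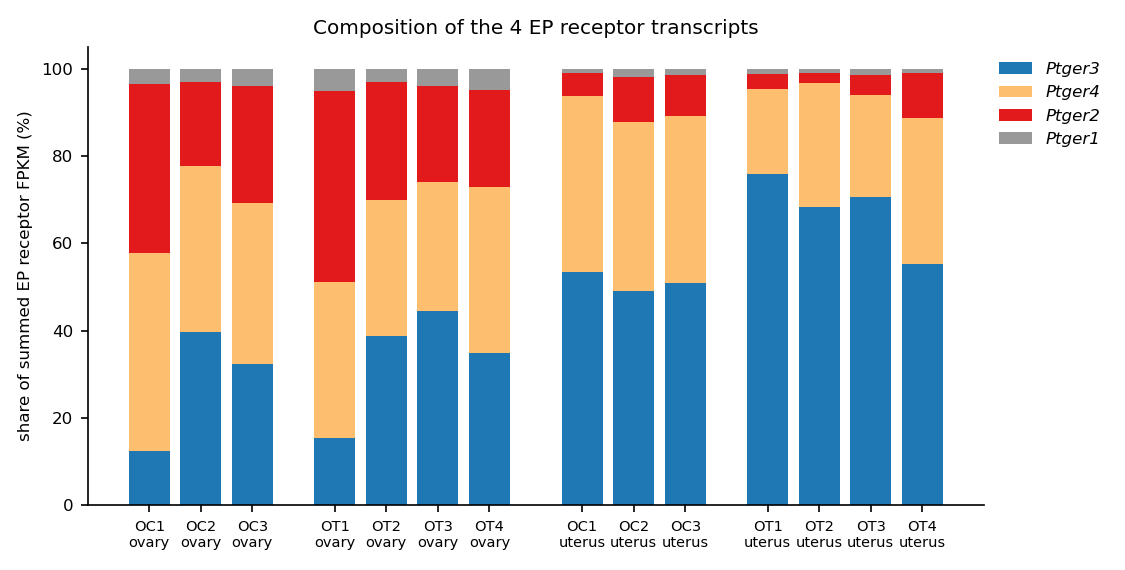
Share of Ptger3, Ptger4, Ptger2 and Ptger1 in their summed FPKM (vertical axis, percent) in each of the 14 libraries, a bar per library. Ptger3 takes 49.1% to 53.5% of the bar in the OC uteruses and 55.3% to 75.8% in the OT uteruses, and 12.5% to 44.6% in the ovaries.

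The treatment contrasts of the tissues were compared with each other in a fit of all 14 libraries. Of the 10 genes, 0 differed between the tissues at both cutoffs (1.83% of 14557 genes) and 0 at the unadjusted p of limma (5.12%). The largest differences were those of Ptgds, where the log2 fold change was 1.53 higher in the uterus than in the ovary (unadjusted p = 0.106 by limma), and Ptger2, where it was -0.84 (unadjusted p = 0.187 by limma). Both depended on a library: for Ptgds the difference was 2.40 without OC1 (unadjusted p = 0.0102 by limma), and for Ptger2 -1.36 without OT4 (unadjusted p = 0.00561 by limma). The ratios between the tissues for Ptges and Ptgis were 1.39 and 1.32, with 95% confidence intervals of 0.746 to 2.57 and 0.858 to 2.04, and without OT4 the difference for Ptgis had an unadjusted p of 0.0466 by limma.

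A list of 46 further genes of the pathway, from phospholipases to the other receptors and the lipoxygenase branch, was set beside the 10. In the ovary 37 of them were tested and 0 passed both cutoffs (0.451% of all genes), and 3 passed the unadjusted p of limma (4.51% of all genes), Tbxas1 higher and Pla2g4a and Akr1b7 lower in the OT group. In the uterus 1 of 38 passed both cutoffs, near the 2.9% of all genes, and 4 passed the unadjusted p of limma against 8.2% of all genes (5.15% higher), all higher in the OT group: Ltc4s, Tbxas1, Fam213b and Ptgir. The median log2 fold change over the list came to -0.03 for the ovary and 0.26 for the uterus, and over all genes to -0.01 and 0.01. Between the tissues 10 of 40 were called higher and 8 lower in the uterus, where 10% and 9.59% of all genes were.

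Ltc4s, the leukotriene C4 synthase of the lipoxygenase branch, was the gene of the list called in the uterus. It was at 4.61, 6.26 and 5.64 FPKM in OC1 to OC3 and at 51.1, 17.9, 19.0 and 6.82 FPKM in OT1 to OT4. All OT uteruses were above all OC uteruses, OT1 by far and OT4 barely. The level was 3.36-fold higher (log2 fold change 1.75, standard error 0.57; unadjusted p = 0.0151, adjusted p = 0.550 by limma after Benjamini-Hochberg adjustment). In the ovary its log2 fold change was 0.44 (unadjusted p = 0.381 by limma). Akr1b7, an aldo-keto reductase that can form prostaglandin F2α, was the gene called in the comparison of the contrasts. Its ovary levels were 17.4, 12.5 and 14.5 FPKM in OC1 to OC3 and 9.35, 12.6, 11.7 and 8.35 FPKM in OT1 to OT4, and its uterus levels 0.629, 0.774 and 0.338 FPKM and 0.930, 2.03, 0.939 and 1.08 FPKM. The OT group was lower in the ovary (log2 fold change -0.50) and higher in the uterus (0.97), a difference of 1.47 (standard error 0.41; unadjusted p = 0.00332, adjusted p = 0.844 by limma after Benjamini-Hochberg adjustment).

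A few genes of the list were singled out after their values had been seen. Tbxas1, the thromboxane synthase, did not overlap between the groups in either tissue, at 3.29 ± 0.401 FPKM (SD, n = 3) in the OC and 4.89 ± 0.705 FPKM (SD, n = 4) in the OT ovaries, and 3.49 ± 0.0480 and 6.33 ± 2.53 FPKM in the uteruses. By limma the unadjusted p was 0.0072 for the ovary and 0.0410 for the uterus, and after Benjamini-Hochberg adjustment it was 0.997 for the ovary. The immune markers of the ovary, given above, were likewise higher in the OT group, and their part in the difference of Tbxas1 was not tested. Ptgir, the prostacyclin receptor, was at 3.08, 2.88 and 3.73 FPKM in the OC uteruses and at 4.01, 5.94, 4.50 and 4.12 FPKM in the OT uteruses, above all of them and highest in OT2, as Ptgis was (log2 fold change 0.50, unadjusted p = 0.0394 by limma). Fam213b, a prostamide and prostaglandin F synthase, was at 7.52 ± 1.45 FPKM (SD, n = 3) in the OC and 13.6 ± 3.41 FPKM (SD, n = 4) in the OT uteruses. After Benjamini-Hochberg adjustment the limma p of Tbxas1, Ptgir and Fam213b in the uterus was 0.596, 0.596 and 0.503.

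In each role, the gene with the highest level among the 46 further genes, with the 10 genes left aside, differed between the tissues in the following way. Ptgfr, the receptor of prostaglandin F2α, was at 154 ± 18.5 FPKM in the ovary and 5.14 ± 2.07 FPKM in the uterus (SD, n = 7 each), a log2 fold change of -4.95 and above every EP receptor in the ovary. Ptgfrn, an immunoglobulin-domain protein known as a negative regulator of that receptor, was the highest further gene of the role in the uterus. It was at 44.7 ± 8.19 FPKM there, below Ptger3 of the 10 genes at 64.6 FPKM. Akr1c18, which inactivates progesterone and can form prostaglandin F2α, ranged from 19.8 to 144 FPKM in the ovaries, with the OC1 ovary at 144 FPKM and the next highest at 51.8 FPKM, and from 0.234 to 4.35 FPKM in the uteruses. By median over the ovaries Akr1c18, at 34.9 FPKM, was below Akr1b3 of the same role, at 43.5 FPKM. The lead of Akr1c18 by mean therefore rested on the OC1 ovary. Cbr2, a carbonyl reductase, was the highest of the synthesis role in the uterus at 68.9 to 326 FPKM. Of the phospholipases, Pla2g5 led in the ovary at 14.4 ± 3.66 FPKM and Pla2g4a, the cytosolic enzyme that releases arachidonic acid, in the uterus at 15.1 ± 4.87 FPKM. The prostaglandin importer Slco2a1 led in the ovary at 16.7 ± 0.300 FPKM and the exporter Abcc4 in the uterus at 17.2 ± 4.73 FPKM (SD, n = 7 each). Zadh2, a prostaglandin reductase, led the further breakdown genes in both, at 26.9 ± 3.24 and 40.5 ± 3.97 FPKM. Hpgd of the 10 genes was higher in the uterus, at 54.4 FPKM. In the lipoxygenase branch Lta4h led in the ovary at 27.7 ± 2.75 FPKM and Alox15 in the uterus at 33.0 to 169 FPKM, and all 11 tested genes of the branch had a log2 fold change above 0 toward the uterus, 4 of them called, where 10% of all genes were called higher.

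**Figure D5:**
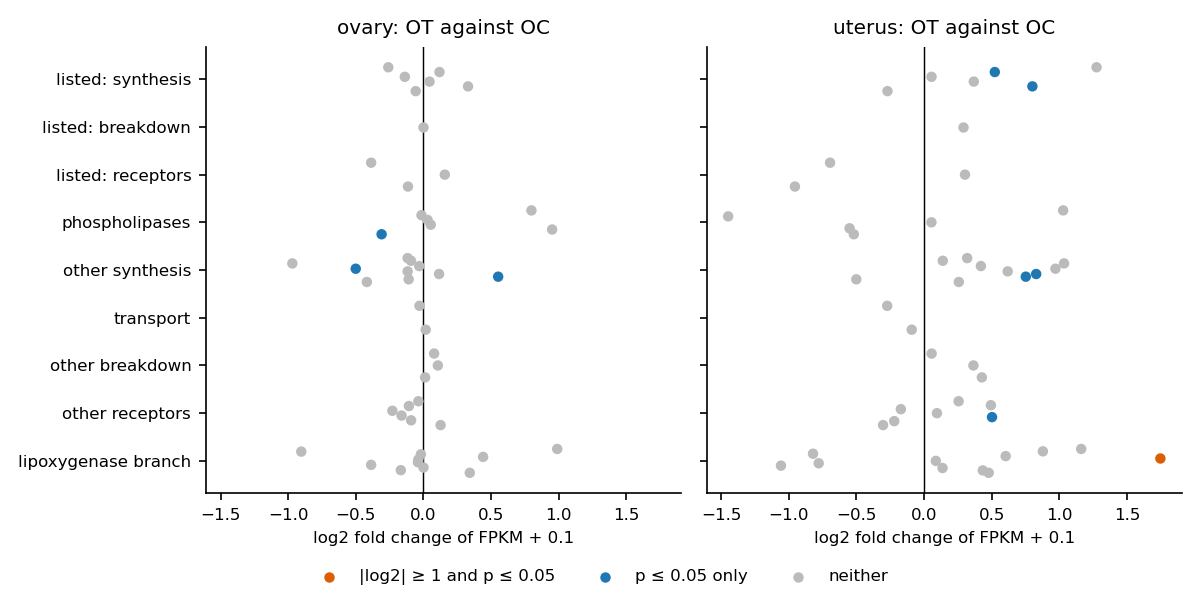
Log2 fold change of FPKM + 0.1 from OC to OT (horizontal axis) for each tested gene, a point each, grouped by role, in the ovary (left) and the uterus (right). Orange marks the gene that passed both cutoffs, Ltc4s at 1.75 in the uterus, blue those with an unadjusted p of 0.05 or less and a smaller change, and grey the rest.

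The inducible cyclooxygenase Ptgs2, likewise named after its values were seen, was at 0.631 to 2.73 FPKM in the ovaries and 0.305 to 0.977 FPKM in the uteruses. Ptgs1 was 3.05 to 13.5 times as high in the ovaries and 12.5 to 84.7 times as high in the uteruses.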

How the data were processed

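Gene levels were deposited as FPKM. To obtain them, the authors trimmed adapters with Skewer, aligned to mm10 using STAR 2.5 and estimated expression using Cufflinks 2.2.1 with its option for stranded libraries. The submitters' processing notes also name Cuffdiff, which needs the reads and was not run. The reads were not used here. All 21853 identifiers matched GENCODE M21 (GRCm38, the assembly of mm10), which gave symbols.

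Genes whose mean over the libraries of a comparison reached 0.5 FPKM entered limma 3.58.1 (R 4.3.3; lmFit, then eBayes with a trend) as log2(FPKM + 0.1), which understates changes of low genes. Treatment calls took a log2 fold change of 1 or more in either direction with an unadjusted p of 0.05 or less, tissue calls the same fold change and a Benjamini-Hochberg adjusted p under 0.05. Fold changes given with limma come from these logs and can differ from the ratio of mean FPKM. Exact permutation p-values are 2 times the smaller tail. Motifs and figures were made with pandas 2.3.3, numpy 2.4.6 and matplotlib 3.10.9 (Python 3.11.15). The limma step was tested on simulated data. The alternatives were other filters, pseudocounts and scalings, robust eBayes, a single fit of both tissues, blocks and leaving out each library.

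The 10 genes and the lists were chosen with earlier results of these data known. Named were the 10 genes, pathway genes called in a treatment comparison, and the gene of each role with the highest mean FPKM per tissue, taken from the further pathway genes. Tbxas1, Ptgir, Fam213b, Ptgs2, Ptger1 and Akr1b3 fall outside this rule and were named after their values were seen. Genes with a profile like that of a called member would have been named too, but no member was called in a treatment comparison. Of the further pathway symbols, Prxl2b and Ptgr3 had no match under those names and were covered by Fam213b and Zadh2.

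Replicate numbers come from the labels. Deviations of ovary and uterus libraries of the same name from their group means correlated at 0.090 to 0.265 (7 pairs, mean 0.156). Different names gave -0.274 to 0.273 (18 pairs, mean -0.059), the highest of them above every pair of the same name. Deviations cancel within a group, so the mean of different names is not independent of that of same names. These values therefore do not decide the pairing, which rests on the labels. A fit with the mouse as a block is an alternative. Within a tissue each library is a mouse, and p-values of the treatment comparison measure the spread among these mice. The main limma fit of all 14 libraries took the ovary and uterus libraries of a mouse as independent. Its p-values and intervals, for the tissues and for the difference of the contrasts, therefore do not measure the spread among mice alone. The sign-flip test and the fit with the mouse as a block kept the pairing. The labels give no sequencing batch.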

Additional observations from a re-analysis of the deposited data

Results flagged for a closer look

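Of 20 groups of 4 libraries tested (the 10 genes in the OT ovaries and OT uteruses), 2 held a library far from the other 3 by Dixon's criterion on log2(FPKM + 0.1), and 1 of them, Ptges3, also on FPKM itself, where chance gives about 1 in 20. In the OT ovaries, Ptges3 was at 89.5 FPKM in OT1 and between 84.8 and 85.4 FPKM in the other 3. Also in the OT ovaries, Ptgds was at 2.79 FPKM in OT2 and between 5.99 and 7.001 FPKM in the other 3. Its gap over the range was 0.8293 on the log2 scale and 0.760 in FPKM, against a critical value of 0.829, so the distance passed only barely and on the log2 scale alone. The log2 fold change of Ptgds between the groups, -0.26, was 0.05 without OT2. The groups of 3 OC libraries were not tested this way.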

How the results depend on the processing

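The precision is limited by 3 and 4 mice per group, by an unknown depth and by values near 0 for Ptgds. The calls that separate the tissues kept their direction and side of the threshold for Ptgis, Ptgds, Hpgd, Ptger3, Ptger4 and Ptges under all 12 alternatives, with 6 or 7 of the 10 genes called.

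Beside the replicate block, given below, the number of genes called over the whole table moved by more than 1.5 times in the following cases. In the ovary it was 65, and 42 with a filter at 1 FPKM, 159 with no filter, 18 with a pseudocount of 1 and 136 without OT3. In the uterus it was 410, and 259 with a pseudocount of 1, and the difference between the tissues went from 267 to 134. Of the further pathway genes, a pseudocount of 1 left 0 in place of 1 called in the difference between the tissues and 11 in place of 18 between uterus and ovary, and quantile normalization gave 2 in the former.

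Replicate numbers were not taken to pair OC with OT mice, since the labels name no such pairs. The deviations of same-numbered libraries correlated at 0.045 to 0.331 in the ovary (mean 0.152, against -0.051 for different numbers). In the uterus they correlated at -0.027 to 0.080 (mean 0.018 against -0.004). The ovary means were near those of ovary with uterus libraries of a mouse (0.156 against -0.059), so these values do not decide whether the numbers pair the mice. A fit with replicate block, from which OT4 had to be dropped for lack of an OC partner, called 105 ovary genes and 666 uterus genes, 2 of the 10 genes in the uterus (Ptges at 1.04 and Ptger2 at -1.44), and 1 further pathway gene in the ovary and 2 in the uterus. The other 8 genes stayed uncalled. With the mouse as a block, no call of the 10 genes changed between the tissues or in the difference of the contrasts.

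Leaving out each replicate in turn gave 53 to 136 called genes in the ovary, 307 to 602 in the uterus, 212 to 379 in the difference between the tissues and 2699 to 2923 between uterus and ovary. Of the 10 genes it called 0 in the ovary, 0 to 2 in the uterus, 0 to 1 in the difference and 6 to 7 between uterus and ovary. Of the further pathway genes it called 0 to 1, 1 to 2, 1 to 4 and 14 to 18.

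Small log2 fold changes turned sign. In the ovary Hpgd was -0.0005 with a pseudocount of 1 and -0.0285 with the replicate block, and Ptges3 was -0.11 in the uterus and -0.0037 between uterus and ovary with quantile normalization. Without a replicate the ovary values ran from -0.25 to 0.11 for Ptgs1, -0.39 to 0.05 for Ptgds, -0.15 to 0.22 for Hpgd and -0.64 to 0.83 for Ptger3, the uterus values from -0.45 to 0.0544 for Ptgs1 and -0.14 to 0.19 for Ptges3, and the differences between the tissues from -0.55 to 0.26 for Ptgs1 and -0.48 to 1.01 for Ptger3. None of these passed a threshold in the alternative that turned its sign, and the cause was not tested.

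Ptges in the uterus also missed the unadjusted p cutoff of limma with no filter (0.0572), with a pseudocount of 1 (0.0502) and with quantile normalization (0.0553), and Ptgis with quantile normalization (0.0819), while Ptger2 in a single fit of both tissues had 0.0433. Of 589 values of single genes and Ptger3 shares under the alternatives, 539 were counted as the same. For single genes this meant the same direction and side of the threshold, and 15 lost the threshold, 14 gained it and 21 turned sign. For the shares, which have no threshold, it meant a shift smaller than the larger group SD. The ovary difference in share ran from -2.60 to 11.3 percentage points without a library, so a turned sign there is not among the 21. Ptgds could not be tested in the uterus with a filter at 1 FPKM.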
